A study of Mus musculus with 2 samples.

Results

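This account covers 10 genes that define epithelial or mesenchymal state, read out by RNA sequencing of CE1-4 cells, a line derived from mouse prostate cancer. The genes are the cadherins Cdh1 and Cdh2, the vimentin gene Vim, the epithelial adhesion gene Epcam, and the transcription factor genes Zeb1, Zeb2, Snai1, Snai2, Twist1 and Grhl2. They were chosen by symbol, and all 10 of them have a row among the 23420 symbols of the deposited count table. The study has 2 groups of 1 library each: CE1-4 cells given PGE-2 (prostaglandin E2, a lipid mediator made by way of COX-2) for 6 h, and untreated CE1-4 cells. The labels give no vehicle, no dose and no culture time for the untreated cells, and all values come from 1 line, so effects of vehicle or time in culture and of PGE2 cannot be told apart. The title places the experiment in a study of COX-2 and of prolactin signaling between tumor and stroma, and the comparison asks which transcripts differ after exposure to PGE2.

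Epithelial cells are held together by E-cadherin, the product of Cdh1, and carry the adhesion protein EpCAM. Mesenchymal cells typically use N-cadherin, the product of Cdh2, and a vimentin filament network. In an epithelial-mesenchymal transition, zinc finger factors of the SNAIL and ZEB families and the basic helix-loop-helix factor TWIST1 promote the shift, in part by repressing Cdh1 and other epithelial genes. GRHL2 acts against it, holding ZEB1 down and epithelial genes on, and microRNAs of the miR-200 family hold ZEB1 and ZEB2 down. Carcinoma cells can hold genes of both kinds at once.

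The PGE2 library held 17582808 counts and the untreated library 16908429, so that 1 CPM (counts scaled to a common depth) stood for 17.6 counts in the PGE2 library and 16.9 in the untreated library. Genes with 1 CPM or more in either library, 11387 in all, are called tested below. With 1 library per group there is no replicate of either, so no p-value is given. Intervals are 95% intervals from the counts, cover counting error only, and compare these libraries and not the conditions.

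The microRNAs are shown because their pairing with the Zeb1 and Zeb2 messages runs through the seed, which is bases 2 to 8 and stands in capitals. The mature sequences are from RefSeq, on GRCm38.p6, and each is followed by the chromosome that carries it.
miR-141-3p: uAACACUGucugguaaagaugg (chromosome 6)
miR-200a-3p: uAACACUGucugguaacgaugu (chromosome 4)
miR-200b-3p: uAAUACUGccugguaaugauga (chromosome 4)
miR-200c-3p: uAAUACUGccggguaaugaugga (chromosome 6)
miR-429-3p: uAAUACUGucugguaaugccgu (chromosome 4)
miR-205-5p: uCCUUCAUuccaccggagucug (chromosome 1)
The first pair share the seed AACACUG and the next 3 share AAUACUG, while miR-205-5p, which also acts on the Zeb messages, has a seed of its own. All 6 of their gene rows, Mir141, Mir200a, Mir200b, Mir200c, Mir429 and Mir205, had 0 counts in the PGE2 library and 0 in the untreated library. Of the 649 microRNA gene rows in the table, 603 were at 0 in both libraries, so a 0 in such a row was the usual value here. Mature microRNAs are shorter than the fragments a total RNA library is built to hold, and their level was not measured.

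Both libraries held transcripts of both states. Per length, Vim was the most abundant of the 10 genes, Cdh2 and Cdh1 lay close to each other well below it, the ZEB genes and Snai2 followed, and Twist1, Epcam and Snai1 were scarce. Grhl2 was not detected in either library. None of the 8 tested members passed a 2-fold difference with an interval excluding 1, where 0.307% of all tested genes did (0.0527% higher and 0.255% lower in the PGE2 library), and the 3 members whose interval excluded 1 differed by 3 to 6%. Levels per length below are RPKM, which are CPM per kilobase of annotated exons, and only these are compared between genes.

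**Figure D1:**
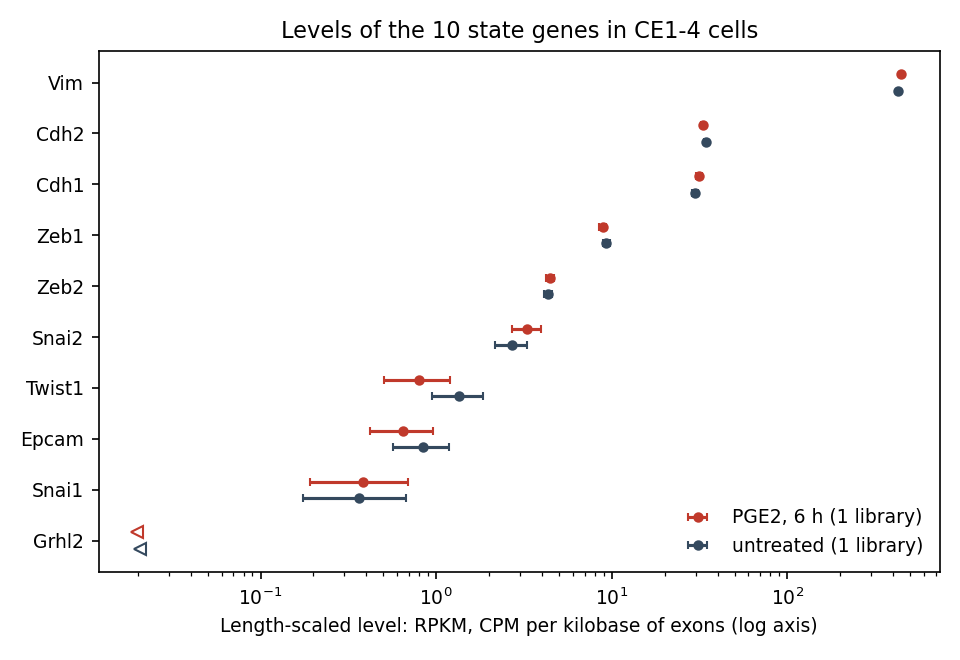
Length-scaled levels of the 10 genes (log axis, CPM per kilobase of exons) in the PGE2 library (red, upper point of each pair) and the untreated library (dark, lower point), with exact 95% Poisson intervals. The open triangles mark the upper limit that 0 counts of Grhl2 allow, and the order of the genes is the same in both libraries.

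Cdh1 lies on the plus strand of chromosome 8 of GRCm38 (mm10), from 106603351 to 106670246. It had 2534 counts in the PGE2 library and 2287 in the untreated library. Per length this was 31.4 RPKM (30.2 to 32.7) in the PGE2 library and 29.7 RPKM (28.4 to 30.9) in the untreated library. The log2 ratio of PGE2 over untreated was 0.08 (0.0016 to 0.17), so Cdh1 was 5.97% higher in the PGE2 library, at the edge of counting error.

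Cdh2 lies on the minus strand of chromosome 18, from 16588877 to 16809246. It had 4699 counts in the PGE2 library and 4696 in the untreated library, nearly equal counts in libraries of unequal depth. Its level was 33.0 RPKM (32.1 to 34.0) in the PGE2 library and 34.5 RPKM (33.5 to 35.5) in the untreated library. The log2 ratio was -0.06 (-0.12 to -0.0047), the opposite direction to Cdh1. Neither cadherin call held under every scaling of the libraries. With scaling on total counts the interval of Cdh2 reached 0.0032 and so included no difference, and with 3 abundant rows left out of the totals (Rn45s, Lars2 and Malat1) that of Cdh1 reached down to -0.0073. It also did so, to -0.011, once a trend on abundance had been subtracted.

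The balance between the cadherins does not depend on the scaling. Per length, Cdh2 stood at 1.05 times Cdh1 (1.002 to 1.10) in the PGE2 library and at 1.16 times (1.11 to 1.22) in the untreated library. The log2 ratio of that balance, PGE2 over untreated, was -0.147 (-0.248 to -0.046), a shift from Cdh2 towards Cdh1 beyond counting error. Beside it, the SD of log2 ratios of single genes with 3000 to below 10000 counts over both libraries, the class that holds both cadherins, was 0.065 among 1885 genes, which corresponds to 0.092 for the difference of 2 such genes. In that class 20.6% of the tested genes had an interval that excluded 1, against 12.3% of all tested genes. The level of Cdh2 relative to Cdh1 rests on the gene models. With the longest annotated transcript in place of all exons, Cdh2 stood at 1.70 times Cdh1 in the PGE2 library and 1.88 times in the untreated library, while the difference between the libraries stays as given. In bulk RNA, fewer cells of a type and less RNA per cell cannot be told apart, nor can cells that hold both cadherins be told from a mixture.

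Vim, on the plus strand of chromosome 2 (13573927 to 13582826), encodes the intermediate filament protein of mesenchymal cells. It had 36950 counts in the PGE2 library and 34224 in the untreated library, which placed it at rank 28 and rank 30 of all rows by counts. Per length it stood at 442 RPKM (437 to 446) in the PGE2 library and 428 RPKM (423 to 432) in the untreated library. The log2 ratio was 0.05 (0.025 to 0.068), or 3.26% higher in the PGE2 library, with an interval that excluded 1. Among the 622 genes with at least 10000 counts the SD of log2 ratios was 0.109, and 0.054 without the 4 rows Lars2, Rn45s, Malat1 and Neat1. In that class 33.4% of the genes had an interval above 1, and after subtraction of an abundance trend the log2 ratio of Vim was 0.025. The ratio of Vim therefore lay within 1 SD of genes of its abundance.

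Epcam, on the plus strand of chromosome 17 (87635979 to 87651129), encodes a surface glycoprotein of most simple epithelia. It had 25 counts in the PGE2 library and 31 in the untreated library, or 0.646 RPKM (0.418 to 0.954) and 0.838 RPKM (0.569 to 1.19). The log2 ratio of -0.37 (-1.20 to 0.43) was within counting error, and a 2-fold decrease was inside the interval. Per length, Vim stood at 684 times Epcam (463 to 1057) in the PGE2 library and at 511 times (359.9 to 752) in the untreated library. Those intervals overlap. With the longest transcript as length these ratios were 1030.5 in the PGE2 library and 770 in the untreated library.

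The start sites of Epcam and Vim are set side by side because they are the scarce and the abundant structural members, and because SNAIL and ZEB proteins are known to bind the E-box CAGGTG in promoters they repress. The 250 bases before each start site are from RefSeq on GRCm38.p6, in the direction of the gene, and capitals mark CAGGTG or its reverse complement CACCTG. The RefSeq start site of Vim lies inside the GENCODE gene given above, downstream of its first base.
Epcam, chr17:87635729-87635978, plus strand: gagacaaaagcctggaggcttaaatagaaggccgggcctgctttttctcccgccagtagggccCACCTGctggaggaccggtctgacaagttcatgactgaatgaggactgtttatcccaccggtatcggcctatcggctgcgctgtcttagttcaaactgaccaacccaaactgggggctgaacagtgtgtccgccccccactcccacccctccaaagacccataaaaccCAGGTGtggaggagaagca
Vim, chr2:13574061-13574310, plus strand: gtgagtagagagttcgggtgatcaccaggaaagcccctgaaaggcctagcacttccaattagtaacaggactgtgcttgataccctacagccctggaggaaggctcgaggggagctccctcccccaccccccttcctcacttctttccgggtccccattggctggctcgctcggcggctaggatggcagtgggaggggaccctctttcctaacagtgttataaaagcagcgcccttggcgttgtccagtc
The Epcam window held the E-box 2 times, with the first base 187 and 19 bases before the start site. The Vim window held none of these letters on either strand. A table of such windows held entries for 5 of the 10 members (Vim, Zeb2, Snai1, Twist1 and Epcam), with 8 windows in all. Zeb2 has several of these windows, some of which overlap, so they are not 8 separate promoters. The E-box stood in 2 of these 8 windows, those of Epcam and Snai1, and in 17.2% of the 32851 windows of all genes. The full cAMP response element TGACGTCA, the letters bound by CREB downstream of PGE2 receptors that raise cAMP, stood in 0 of the 8 and in 1.55% of all windows. A match is a description of the letters and not a bound site.

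**Figure D2:**
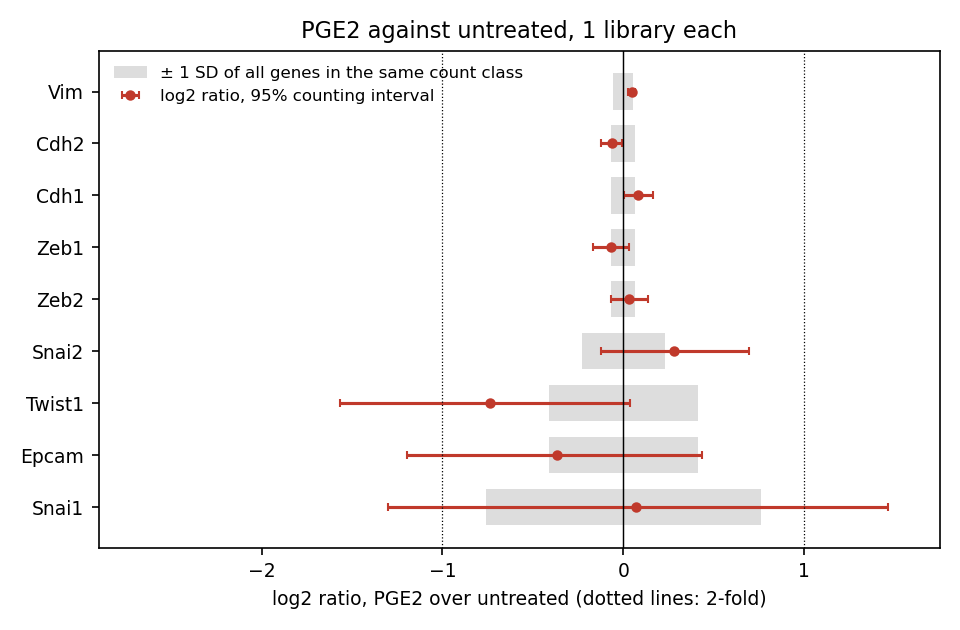
Log2 ratio of the PGE2 over the untreated library for the 9 members with counts, with 95% counting intervals (bars), ordered by abundance from Vim to Snai1. Grey boxes span 1 SD either side of 0 among all genes in the same class of counts (for Vim, without Lars2, Rn45s, Malat1 and Neat1), and no point lies beyond the dotted 2-fold lines.

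Among the member genes for factors that promote the mesenchymal state, the ZEB genes were the most abundant per length. Zeb1 lies on the plus strand of chromosome 18, from 5591860 to 5775467 and encodes a zinc finger and homeodomain repressor of Cdh1. It had 1608 counts in the PGE2 library and 1612 in the untreated library, or 8.88 RPKM (8.46 to 9.33) and 9.31 RPKM (8.86 to 9.78). Its log2 ratio was -0.07 (-0.17 to 0.03). Zeb1 thus had an interval that included 1, and the interval excluded a 2-fold difference in either direction.

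Zeb2, its paralog, lies on the minus strand of chromosome 2, from 44983632 to 45117395. It had 1566 counts in the PGE2 library and 1463 in the untreated library, or 4.45 RPKM (4.24 to 4.68) and 4.35 RPKM (4.13 to 4.58). The log2 ratio of 0.03 (-0.07 to 0.14) was within counting error. Zeb1 stood at 1.99 times Zeb2 per length (1.86 to 2.14) in the PGE2 library and at 2.14 times (1.99 to 2.30) in the untreated library, intervals that overlap. The exons of Zeb2 overlap those of the antisense gene Zeb2os, and those of Zeb1 overlap Gm10125 on the other strand. The strand setting of the counting is not given in the sources used here. Gm10125 had 0 counts in both libraries, but Zeb2os has no row in the table, so reads of Zeb2 and Zeb2os may not be separated.

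The SNAIL genes lay below the ZEB genes per length, with Snai2 next after Zeb2 and Snai1 far below it. How far Snai2 lay below Zeb2 rests on the gene models. With the longest transcript as length, Zeb2 stood at 9.74 RPKM in the PGE2 library and 9.51 RPKM in the untreated library, while Snai2 kept the values below. Snai2, on the plus strand of chromosome 16 (14705852 to 14709385), encodes SLUG. It had 117 counts in the PGE2 library and 92 in the untreated library, or 3.28 RPKM (2.72 to 3.94) and 2.70 RPKM (2.18 to 3.31). The log2 ratio was 0.28 (-0.12 to 0.69), higher in the PGE2 library but within counting error, where the SD among 1735 genes with 100 to below 300 counts was 0.229. Snai1, on the plus strand of chromosome 2 (167538195 to 167542814), encodes SNAIL and is known as an early response gene in many cell types. It had 11 counts in the PGE2 library and 10 in the untreated library, 0.624 CPM and 0.593 CPM, and so fell under the minimum of 1 CPM. Its log2 ratio of 0.07 had an interval of -1.30 to 1.47, so neither a 2-fold increase nor a 2-fold decrease of Snai1 is excluded at this depth. Per length, Snai2 stood at 8.53 times Snai1 (4.60 to 17.6) in the PGE2 library and at 7.38 times (3.84 to 15.9) in the untreated library.

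Twist1 lies on the plus strand of chromosome 12, from 33957671 to 33959829 and encodes a factor of mesoderm that also represses Cdh1. It had 23 counts in the PGE2 library and 37 in the untreated library, or 0.801 RPKM (0.508 to 1.20) and 1.35 RPKM (0.949 to 1.86). Its log2 ratio of -0.74 was the largest in size among the 8 tested members, but the interval of -1.57 to 0.04 included 1. The SD among the 1227 genes with 30 to below 100 counts, which include Twist1 and Epcam, was 0.412.

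Grhl2, on the plus strand of chromosome 15 (37233036 to 37363569), encodes the grainyhead-like factor that maintains epithelial gene expression. It had 0 counts in the PGE2 library and 0 in the untreated library. Taken as 3 counts, this allows up to 0.170 CPM in the PGE2 library and 0.178 CPM in the untreated library, or 0.0198 RPKM and 0.0207 RPKM over its exons. This is a 1-sided limit, and the 2-sided Poisson bound used for the other levels would be 0.209 CPM in the PGE2 library and 0.219 CPM in the untreated library. The limits in RPKM lie under the lower bound of Snai1, the scarcest member with counts, at 0.192 RPKM in the PGE2 library and 0.175 RPKM in the untreated library.

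The order of levels per length was the same in both libraries: Vim, Cdh2, Cdh1, Zeb1, Zeb2, Snai2, Twist1, Epcam, Snai1 and Grhl2. Neighbouring intervals overlapped between Twist1 and Epcam and between Epcam and Snai1 in both libraries, and between Cdh2 and Cdh1 in the PGE2 library. With the longest transcript as length the order was again the same, and the cadherins then separated in the PGE2 library too, at 55.0 RPKM for Cdh2 and 32.4 RPKM for Cdh1.

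Of the 8 tested members, 4 had a ratio above 1 and 4 below, with a median log2 ratio of -0.015, against -0.0014 over all 11387 tested genes. The interval excluded 1 for 3 of the 8, on the higher side for Cdh1 and Vim, where 6.61% of all tested genes lay, and on the lower side for Cdh2, where 5.65% lay. All 3 are among the abundant members, and narrow intervals exclude 1 more readily. A 2-fold difference lay outside the interval on either side for 6 of the 8, all but Epcam and Twist1.

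**Figure D3:**
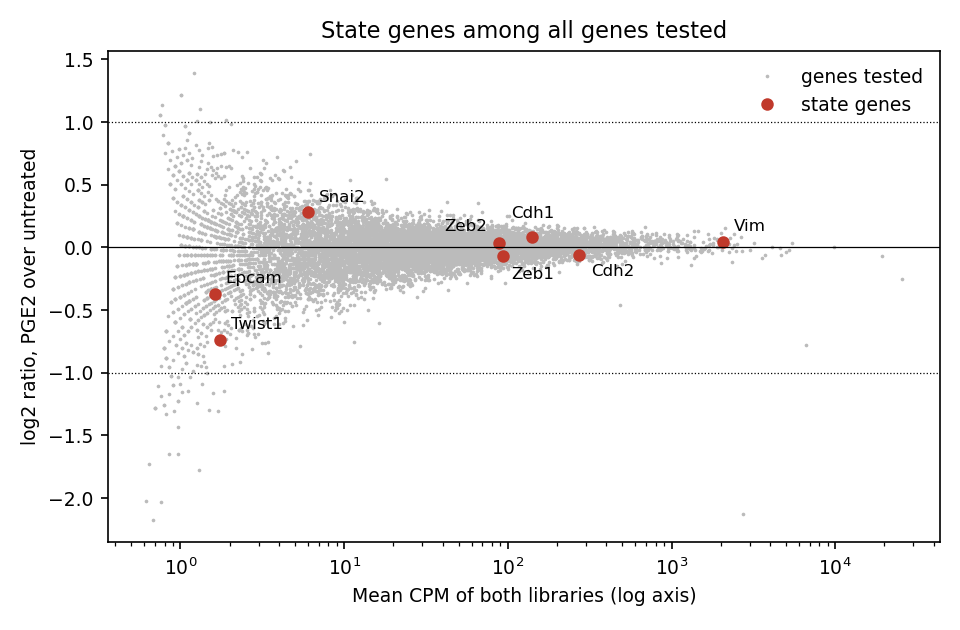
Log2 ratio of PGE2 over untreated against mean CPM (log axis) for the genes tested (grey) with the 8 tested members in red and the 2-fold lines dotted. The 5 abundant members sit near 0, and Snai2, Twist1 and Epcam lie in the range where scarce genes spread.

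Other factors with a like role were listed by symbol. Of 14 further factors that promote the mesenchymal state, 8 were tested, 2 had an interval above 1 and 0 below, and the median log2 ratio was 0.14, or 0.057 at a minimum of 5 CPM. Those with an interval above 1 were Hmga2, a chromatin protein of embryonic and tumor cells, with 372 counts in the PGE2 library and 304 in the untreated library (log2 ratio 0.23, 0.0044 to 0.45), and Tcf3, encoding the E2A partners of TWIST1, with 371 and 304 counts in the same order (0.22, 0.0004 to 0.45). Intervals above 1 were held by 6.61% of all tested genes and by 2.85% in the class of Hmga2 and Tcf3, 300 to below 1000 counts. Sox9, among the most abundant of the list per length, stood at 4.87 RPKM in the PGE2 library and 5.01 RPKM in the untreated library. Twist2 had 18 counts in the PGE2 library and 12 in the untreated library.

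Of 14 factors and splicing regulators of the epithelial state, 9 were tested, 0 had an interval above 1 and 2 below, and the median log2 ratio was -0.045, or 0.0080 at a minimum of 5 CPM. Tfcp2l1, a grainyhead-related factor, had 17 counts in the PGE2 library and 37 in the untreated library (log2 ratio -1.16, -2.11 to -0.32). It was the 1 tested gene of all these lists past the 2-fold rule. Fosl1, a mesenchymal factor of the list before, had 6 and 16 counts in the same order (-1.405, -3.12 to -0.05). It lay under 1 CPM in both libraries and was not tested. Elf5, an ETS factor of glandular epithelium, had 63 counts in the PGE2 library and 86 in the untreated library (-0.51, -1.01 to -0.03). Intervals below 1 were held by 5.65% of all tested genes, 3.17% in the class of Elf5 and 3.29% in that of Tfcp2l1. The most abundant of the list, Klf4, Foxa1 and Klf5, stood at 13.7, 6.38 and 2.72 RPKM in the PGE2 library and 12.6, 5.83 and 2.75 RPKM in the untreated library. The relatives of Grhl2 were also low, with 107 counts in the PGE2 library and 100 in the untreated library for Grhl1 and 2 and 1 for Grhl3. Ovol2, a repressor of Zeb1, had 0 counts in both libraries, and the epithelial splicing regulator Esrp1 had 5 counts in each. Its paralog Esrp2 was tested, with 62 counts in the PGE2 library and 80 in the untreated library. Elf3 (77 and 76 counts in the same order) and Ehf (90 and 95) were tested too.

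Of 7 catenin genes of the cadherin complex, 4 were tested, and Ctnna2, Ctnna3 and Ctnnd2 had 0 counts in both libraries. Ctnnb1, encoding beta-catenin, stood at 369 RPKM in both libraries, with a log2 ratio of 0.001 (-0.02 to 0.02). Ctnna1, encoding alpha-catenin, had a log2 ratio of -0.002 (-0.03 to 0.03). Ctnnd1, encoding p120-catenin, which holds cadherins at the membrane, was at 48.2 RPKM in the PGE2 library and 50.7 RPKM in the untreated library (log2 ratio -0.07, -0.12 to -0.02), the 1 of 4 tested catenins with an interval below 1. Ctnnd1 has at least 10000 counts over both libraries, a class in which 12.9% of the tested genes had an interval below 1. Of 13 other cadherins, 5 were tested and each had an interval that included 1. Cdh13, encoding the membrane-anchored T-cadherin, was the most abundant of them, with 589 counts in the PGE2 library and 590 in the untreated library. Cdh3, encoding P-cadherin of basal epithelium, had 6 counts in the PGE2 library and 5 in the untreated library.

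Of 24 other structural genes of epithelia, 17 were tested, 4 had an interval above 1 and 2 below, with a median log2 ratio of 0.0092. The keratin genes Krt19 (log2 ratio 0.08, 0.04 to 0.12), Krt7 (0.11, 0.04 to 0.17) and Krt18 (0.04, 0.0028 to 0.07) and the surface antigen gene Cd24a (0.04, 0.0069 to 0.06) were on the higher side. The junction genes Cgn, encoding cingulin (-0.20, -0.35 to -0.05), and Dsp, encoding desmoplakin (-0.10, -0.20 to -0.0025), were on the lower side. Krt18, Krt19 and Cd24a have at least 10000 counts over both libraries, a class in which 33.4% of the tested genes had an interval above 1. In the class of Krt7 that share was 14.2%. For Cgn and Dsp the shares below 1 in their classes were 6.13% and 6.47%. Krt8 and Krt18, the keratins of simple epithelium, stood at 652 and 542 RPKM in the PGE2 library and 642 and 528 RPKM in the untreated library. Beside them, Vim stood at 442 RPKM in the PGE2 library and 428 RPKM in the untreated library. With the longest transcript as its length, Vim was at 716 and 694 RPKM in the same order. The keratins were not set on that length, so whether their order with Vim holds on it was not tested. The genes other than keratins spread widely. Rab25 and Prss8 had 0 counts in both libraries, and the claudin gene Cldn7 had 5 counts in the PGE2 library and 4 in the untreated library, low like Grhl2 and Epcam. Tjp1 had 3081 counts in the PGE2 library and 2928 in the untreated library. In the same order Ocln had 735 and 643, Spint2 386 and 396, and the claudin gene Cldn4 58 and 74. The labels give the cells as mouse prostate cancer with no cell type beyond that.

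Of 22 other structural genes of mesenchyme, 14 were tested, 12 had a ratio below 1, 3 an interval below 1 and 0 an interval above 1. Among all tested genes 50.6% had a ratio below 1 and 5.65% an interval below 1. The median log2 ratio of the list was -0.071. S100a4, a calcium-binding protein gene, was at 1822 RPKM in the PGE2 library and 1919 RPKM in the untreated library (log2 ratio -0.07, -0.10 to -0.05). Tnc, encoding tenascin C, had 2181 counts in the PGE2 library and 2218 in the untreated library (-0.09, -0.17 to -0.0026), and the receptor gene Axl 8175 and 8065 (-0.05, -0.09 to -0.0002). All of these differences are under 10%, and Vim lay on the other side of 0. The upper bounds of Tnc and Axl lie nearer to no difference than that of Cdh2, whose interval included 1 with scaling on total counts. S100a4 and Axl have at least 10000 counts over both libraries, a class in which 12.9% of the tested genes had an interval below 1. In the class of Tnc, 3000 to below 10000 counts, that share was 6.47%. The collagen genes of fibroblasts were low, with 76 counts in the PGE2 library and 83 in the untreated library for Col1a1, 3 and 16 in the same order for Col3a1, and 2 and 0 for Col1a2. The log2 ratio of Col3a1 was -2.30 (-4.90 to -0.67), but the gene lay under 1 CPM in both libraries and was not tested. Thy1, Lum and Fap had 0 counts in both. Other genes of the list were higher. Fn1 stood at 21.6 RPKM in the PGE2 library and 22.5 RPKM in the untreated library, and Cald1 at 17.9 and 18.0 RPKM in the same order. Nes, encoding nestin, was the most abundant per length of 5 other intermediate filament genes outside the keratins, with 92 counts in the PGE2 library and 79 in the untreated library.

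**Figure D4:**
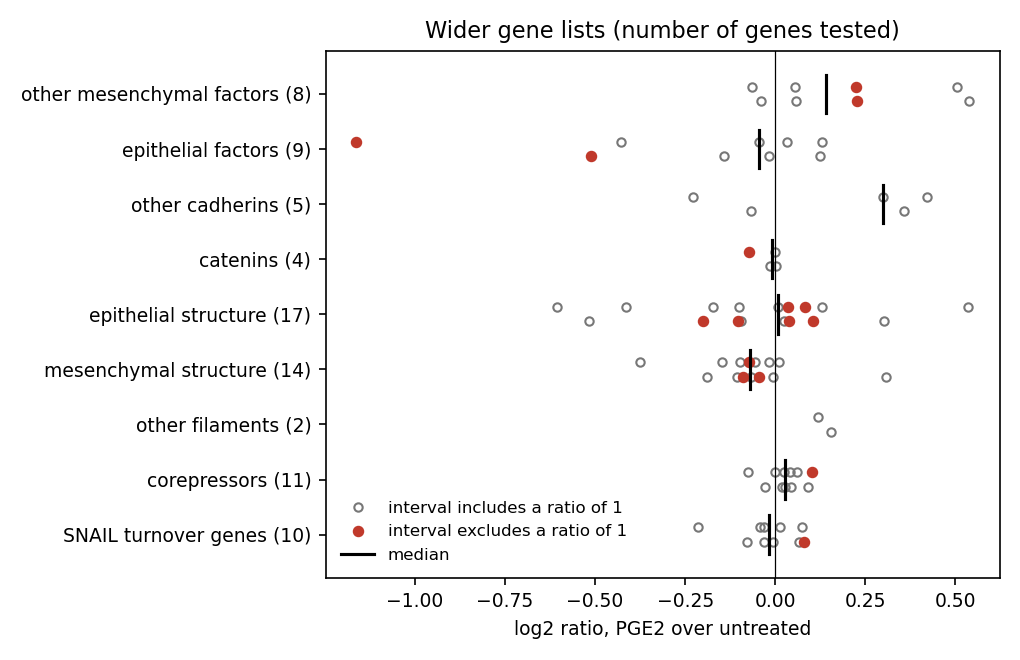
Log2 ratio of PGE2 over untreated for each tested gene of 9 wider lists (rows, with the number of genes), filled where the counting interval excludes a ratio of 1, with the list's median as a bar where at least 3 genes were tested. The medians of the corepressors, catenins, turnover and structural genes lie within 0.1 of 0, and Tfcp2l1 at -1.16 stands alone on the left.

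Partners that SNAIL and ZEB proteins need for repression were expressed throughout. All 11 listed corepressors were tested, 1 had an interval above 1 and 0 below, and the median log2 ratio was 0.027. That 1 was Hdac2, a histone deacetylase gene, with 5127 counts in the PGE2 library and 4566 in the untreated library (0.10, 0.05 to 0.16). In the class of Hdac2, 3000 to below 10000 counts, 14.2% of the tested genes had an interval above 1. Of 10 genes that act on SNAIL turnover all were tested, with 1 interval above 1 and 0 below and a median of -0.018. It was that of Ppp2ca, encoding a catalytic subunit of the phosphatase PP2A, with 10206 counts in the PGE2 library and 9229 in the untreated library (0.08, 0.04 to 0.12). Among tested genes with at least 10000 counts, the class of Ppp2ca, 33.4% had an interval above 1. Gsk3b, the kinase that marks SNAIL for degradation, had 1916 counts in the PGE2 library and 1817 in the untreated library (0.01, -0.08 to 0.11).

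Endothelial and erythroid markers were near 0 in both libraries. The 8 endothelial markers summed to 4 counts in the PGE2 library and 2 in the untreated library, and the 4 erythroid markers with a row to 5 and 9 in the same order. Of the 7 leukocyte markers with a row, summing to 72 counts in the PGE2 library and 76 in the untreated library, Cd68, a lysosomal protein gene, gave 66 and 70, and Ptprc gave 1 and 0. The 6 smooth muscle markers summed to 195 counts in the PGE2 library and 154 in the untreated library, most of it from Smtn with 135 and 101 and Acta2 with 48 and 37. Of the other smooth muscle markers, Myh11 had 3 counts in the PGE2 library and 5 in the untreated library, and none of them was tested.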

How the data were processed

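Per the labels' protocols, the RNA was column-purified total RNA, sequenced from stranded libraries. The authors deposited raw read counts per gene symbol, 1 column per library, with no normalization. Trimmomatic, TopHat2, Bowtie and HTSeq and the build mm10 are named in the submitters' processing notes. Their versions, the annotation and the strand setting were not stated there.

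Columns were tied to samples by their names, which repeat the titles. Counts were scaled with the trimmed mean of M values in edgeR 4.0.16 (R 4.3.3). Log2 ratios carry a prior of 0.5 counts scaled to depth. Ratios, and balances of a gene pair within a library, have 95% Clopper-Pearson intervals. The difference of a balance between the libraries has an exact conditional odds ratio interval (scipy 1.17.1). Levels have exact Poisson intervals. RPKM used the union of exons in GENCODE release M21 on GRCm38. A gene was called past the size rule at 2-fold with an interval that excluded 1. With 1 library per group no test across genes was made, and with 2 libraries no gene was named for likeness of pattern. All 10 members are named. From each wider list up to 6 genes whose interval excluded 1 and the 3 most abundant were eligible, and the further list genes and markers given were chosen after their values were seen. The values of 1 list gene that the rule names are not reported here. Members and lists were chosen with earlier results of these data known. Of 154 symbols in the 10 wider and 4 marker lists, 151 had a row. The procedure was tested on simulated Poisson counts with known folds. They hold counting error only, so this says nothing of variation between libraries of a group. Alternatives were other scalings (total counts, DESeq2 1.42.0 size factors, upper quartile, totals without 3 rows), minimums, prior, fold, interval level, an abundance trend and the longest transcript as length.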

Additional observations from a re-analysis of the deposited data

How the results depend on the processing

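With 1 library per group no replicate could be left out. No paired analysis was possible because each group holds 1 library. Under all alternative scalings, minimums, priors and at 1.5-fold, 0 members passed the size rule. The 3 members with an interval that excludes 1 became 1 (Vim) with a 99% interval, and 2 under each of the other scalings: Cdh1 and Vim with total counts, DESeq2 size factors or upper quartile, Cdh2 and Vim with Rn45s, Lars2 and Malat1 left out of the totals. No member with an interval that excluded 1 turned its direction under another scaling, prior or trend. Intervals of single list genes were not repeated under these alternatives. Bounds of Axl (-0.0002), Tcf3 (0.0004), Dsp (-0.0025), Tnc (-0.0026), Krt18 (0.0028) and Hmga2 (0.0044) lay nearer to no difference than that of Cdh2 (-0.0047). With the longest transcript as length, Cdh2 over Cdh1 was 1.70 in the PGE2 library and 1.88 in the untreated library, and Vim over Epcam 1030.5 (698 to 1592) in the PGE2 library and 770 (542 to 1133) in the untreated library. The medians of the epithelial factors (-0.054 to 0.0080) changed sign over the alternatives, and that of the other mesenchymal factors lay between 0.056 and 0.148. At this depth Epcam, Twist1 and Snai1 could differ by 2-fold between the libraries without being called.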
